A study of Danio rerio with 2 samples.

Results

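Fatty acid uptake and oxidation genes were taken by symbol from an Affymetrix expression array of adult zebrafish hearts. A member is a gene whose single platform symbol begins with acad, acsl, acox, acaa, cpt1, cpt2, hadh, etf, fabp, eci or ech, or is cd36, decr1, decr2, lpl, ppara, crata or acat1. This gave 41 of 8793 genes with a single symbol, measured by 53 probe sets, and where a gene had several, the brightest on average over both arrays stood for it. No named probe set carried a symbol of the acox stem or the symbols cd36, lpl or ppara, so the 41 genes hold intracellular carriers and enzymes and no membrane uptake protein. The symbol rule also took in genes of other pathways, which are set apart below.

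Adult zebrafish had about 20% of the ventricle removed at the apex and were then kept either in atropine, which blocks the muscarinic receptors for acetylcholine, or in plain water. Whole hearts were taken 24 hours after the amputation, and RNA of 15 pooled hearts per condition was hybridised to 1 array. Both groups were amputated adults, and no strain, age or dose is given in the sources used here. The comparison asks how hearts early in regeneration differ when muscarinic signalling is blocked. With 1 array per group there is no replicate check, no SD and no p-value, and each difference describes these 2 pools.

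Heart muscle draws most of its energy from long-chain fatty acids. Fatty acid binding proteins carry them through the cytosol, acyl-CoA synthetases activate them with coenzyme A, and the carnitine shuttle moves the acyl groups into mitochondria. There, beta-oxidation removes acetyl units in repeated rounds of dehydrogenation, hydration, a further dehydrogenation and thiolysis, and the electrons of the first step pass through electron transfer flavoprotein (ETF) to the respiratory chain. Auxiliary isomerases and reductases prepare unsaturated acids for the same cycle.

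The deposited values were log2 expression values, read as such from their range of 2.02 to 14.05. To be compared, a gene had to reach 4.05, the median of all non-control values, on at least 1 array, which 5294 genes and 29 of the 41 members did. Each of the 29 reached it on both arrays. The cardiac myosin light chain gene myl7 stood at 13.21 on the atropine array and 13.23 on the water array, and all 14 cardiomyocyte markers with a named probe set passed the filter. The 13 probe sets past the filter for polyadenylated spike-ins, added before labelling by the manufacturer's scheme, all had lower values in the atropine sample. Their differences ran from -0.86 to -0.13 (log2), with a median of -0.48. Several of the 13 read the same added RNA, so they are not independent readings. Scaling to their median is therefore uncertain in size. All differences below are atropine minus water on the log2 scale as deposited.

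The fatty acid genes past the filter had a slightly lower median on the atropine array, by -0.17 against -0.01 for all genes compared, although this sign turned to 0.02 when the arrays were scaled to cardiomyocyte markers and to 0.31 when they were scaled to the spike-ins. The distance of the members' median from that of all genes was -0.16 in each of those scalings. It could not change, since each of them moves every gene by the same amount. As deposited, 20 of the 29 had a difference below 0, which is 69.0%, where 52.0% of all genes compared did. None was 1.5-fold lower or 1.5-fold higher, where 2.12% and 1.87% of all genes were. The differences ran from -0.48 to 0.36 with a standard deviation of 0.22 across members, and across all genes it was 0.27. The members therefore lay within the common range of differences, with a shift of their centre. At a threshold of 1.2-fold, chosen after seeing the data, 8 members were lower (27.6%, against 13.9% of all genes) and 1 was higher (3.45%, against 10.5%).

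**Figure D1:**
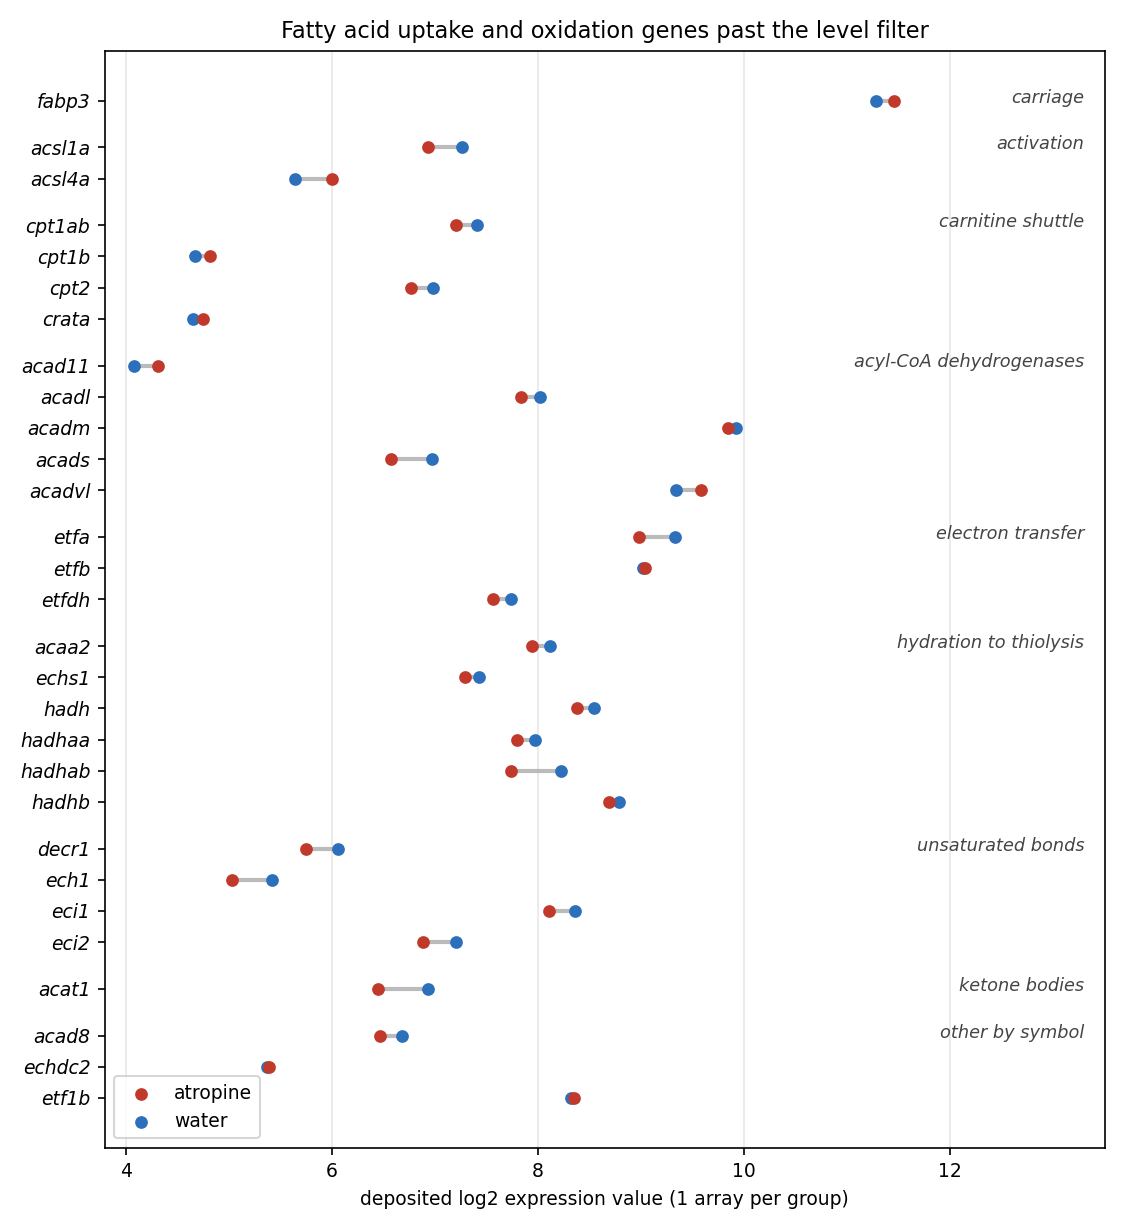
Deposited log2 expression values of the 29 members past the level filter, grouped by role, with the atropine array in red and the water array in blue. Of the 29 genes, 20 have the atropine point to the left of the water point as deposited, where 52.0% of all genes compared are below 0. When scaled to the cardiomyocyte markers 12 of the 29 are below 0, where 20.3% of all genes are. When scaled to the spike-ins 1 of the 29 is, where 201 of all 5294 genes are, and the median of all genes is then 0.47. Both scalings move every gene by the same amount.

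**Figure D2:**
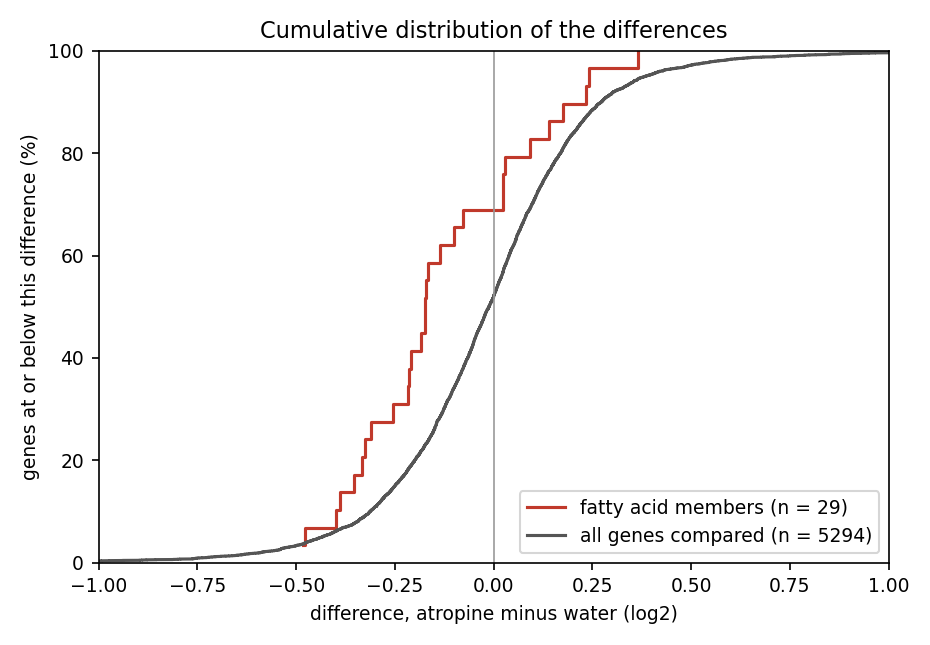
Share of genes at or below each difference, atropine minus water (log2), for the 29 members (red) and all 5294 genes compared (grey). The members' curve crosses 0 at 69.0% and that of all genes at 52.0% in the values as deposited, and the members stay between -0.48 and 0.36; the axis is limited to differences between -1 and 1.

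Carriage rested on a single gene past the filter. The heart-type fatty acid binding protein gene fabp3, whose product ferries fatty acids to the mitochondria of muscle cells, had a value of 11.46 in atropine-exposed hearts and 11.28 in water-exposed hearts, a difference of 0.17. This lay above the median of -0.17 over the 18 genes of the oxidation cycle past the filter. No scaling of a whole array changes that order. The 6 other members of the family, fabp1a, fabp1b.1, fabp2, fabp6, fabp7a and fabp10a, are known for liver, gut or brain. Their values lay between 2.47 and 3.46 on both arrays, below the filter, so their differences of -0.33 to 0.25 are not read as higher or lower.

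Activation showed opposite signs in the 2 synthetase genes that could be compared, as deposited and when scaled to the cardiomyocyte markers. Both were above 0 when scaled to the spike-ins, which puts the median of all genes at 0.47. Only 201 of all 5294 genes were below 0 there. The long-chain acyl-CoA synthetase gene acsl1a, whose mammalian relative is the main synthetase of heart muscle, stood at 6.93 in atropine-exposed hearts and 7.26 in water-exposed hearts, a difference of -0.33 or 1.26-fold. The gene acsl4a, for a synthetase that in mammals prefers arachidonate and other polyunsaturated acids, stood at 6.01 in atropine and 5.64 in water, a difference of 0.36. That was the highest difference of the 29 members and the only one at least 1.2-fold higher. The remaining synthetase genes acsl3b and acsl6 had values from 3.13 to 3.27, below the filter.

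In the carnitine shuttle the 4 genes past the filter were split, with 2 below 0 as deposited, where 52.0% of all genes compared were. Again 2 were below 0 when scaled to the cardiomyocyte markers, where 20.3% of all genes were. These were cpt1ab and cpt2, only just below 0 there, since their deposited differences lay next to the markers' median of -0.20. None was below 0 when scaled to the spike-ins, where 201 of all 5294 genes were and the median of all genes was 0.47. The gene cpt1ab, for a carnitine palmitoyltransferase of the outer mitochondrial membrane and the controlled entry step, stood at 7.20 in atropine-exposed hearts and 7.41 in water-exposed hearts, a difference of -0.21. Its inner-membrane partner gene cpt2 stood at 6.77 in atropine and 6.98 in water, a difference of -0.22. The muscle-type gene cpt1b was at 4.82 in atropine and 4.68 in water, a difference of 0.14. The paralogs of the entry enzyme thus differed unequally, each by less than 1.2-fold as deposited. The gene crata, encoding carnitine acetyltransferase, which buffers acetyl-CoA, differed by 0.09, from 4.75 in atropine and 4.66 in water. The further entry-enzyme gene cpt1a2b, at 3.29 in atropine and 3.18 in water, was below the filter.

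The acyl-CoA dehydrogenases, which start each round and are named by the length of the chain they accept, spread over the range from -0.40 to 0.24. The gene for the very long-chain enzyme, acadvl, stood at 9.58 in atropine-exposed hearts and 9.34 in water-exposed hearts, a difference of 0.24. The medium-chain gene acadm stood at 9.84 in atropine and 9.92 in water, a difference of -0.08, and the long-chain gene acadl at 7.83 in atropine and 8.02 in water, a difference of -0.18. The short-chain gene acads stood at 6.57 in atropine and 6.97 in water, a difference of -0.40 or 1.32-fold. The gene for the longest chains was thus higher on the atropine array and the gene for the shortest chains lowest of the group, with acadl and acadm between them out of order of length. The gene acad11, whose product in mammals acts on hydroxylated fatty acids, differed by 0.23, from 4.32 in atropine and 4.08 in water, close to the filter. The gene acad9, whose human product also assembles complex I, was below it at 2.50 in atropine and 2.52 in water.

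Electron transfer flavoprotein takes the electrons of these dehydrogenases and is built of an alpha and a beta subunit. The alpha subunit gene etfa stood at 8.98 in atropine-exposed hearts and 9.33 in water-exposed hearts, a difference of -0.35 or 1.28-fold. The beta subunit gene etfb stood at 9.04 in atropine and 9.02 in water, a difference of 0.02. The subunits of this dimer therefore did not differ alike between the arrays. The gene etfdh, for the dehydrogenase that hands the electrons on to ubiquinone, stood at 7.56 in atropine and 7.74 in water, a difference of -0.17.

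All 6 genes of the steps from hydration to thiolysis were lower on the atropine array as deposited, with a median of -0.17. Of all genes compared, 52.0% were below 0. After scaling to the cardiomyocyte markers 1 of the 6 was still below 0, where 20.3% of all genes were. After scaling to the spike-ins, which puts the median of all genes at 0.47, all 6 were above 0. With that scaling 201 of all 5294 genes were below 0. The mitochondrial trifunctional protein, which carries out the last 3 steps on long chains, has its alpha subunit encoded by hadhaa and hadhab and its beta subunit by hadhb. The gene hadhab stood at 7.74 in atropine-exposed hearts and 8.22 in water-exposed hearts, a difference of -0.48 or 1.39-fold, and 3.85% of all genes compared had a lower difference. Its paralog hadhaa stood at 7.80 in atropine and 7.97 in water, a difference of -0.17, and hadhb at 8.69 in atropine and 8.79 in water, a difference of -0.10. The alpha paralogs are related in sequence, and whether their probe sets separate them was not tested.

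The enzymes for shorter chains lay close together. The gene echs1, for the short-chain hydratase, stood at 7.29 in atropine-exposed hearts and 7.43 in water-exposed hearts, a difference of -0.14. The gene hadh, for the short-chain hydroxyacyl-CoA dehydrogenase, stood at 8.38 in atropine and 8.54 in water, a difference of -0.17. The thiolase gene acaa2 stood at 7.94 in atropine and 8.11 in water, also a difference of -0.17. Apart from hadhab, the 6 genes thus differed by amounts between -0.17 and -0.10.

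The auxiliary enzymes for unsaturated fatty acids had the lowest median of the roles with at least 3 genes past the filter. It was -0.32 over 4 genes. All 4 were below 0 as deposited, where 52.0% of all genes compared were. They were also below 0 after scaling to the cardiomyocyte markers, where 20.3% of all genes were. After scaling to the spike-ins, which puts the median of all genes at 0.47, all 4 were above 0. With that scaling 201 of all 5294 genes were below 0. The gene ech1, for an isomerase of conjugated double bonds, stood at 5.03 in atropine-exposed hearts and 5.42 in water-exposed hearts, a difference of -0.39 or 1.31-fold. The enoyl-CoA isomerase gene eci2 stood at 6.88 in atropine and 7.21 in water, a difference of -0.33, and its relative eci1 at 8.11 in atropine and 8.36 in water, a difference of -0.25. The products of eci1 and eci2 move a double bond of unsaturated acids into the position that the hydratase accepts. The mitochondrial dienoyl-CoA reductase gene decr1 stood at 5.75 in atropine and 6.06 in water, a difference of -0.31. The peroxisomal reductase gene decr2 was below the filter, at 3.47 in atropine and 3.64 in water.

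The gene acat1, whose product is a thiolase of ketone body use and of isoleucine breakdown, had the lowest difference of the 29. It stood at 6.45 in atropine-exposed hearts and 6.93 in water-exposed hearts, a difference of -0.48 or 1.40-fold, and 3.68% of all genes compared were lower. Of the members that the symbols took in from elsewhere, acad8, for an enzyme of valine breakdown, differed by -0.21, from 6.47 in atropine and 6.68 in water. The gene etf1b, for a translation termination factor unrelated to ETF, differed by 0.02, from 8.35 in atropine and 8.32 in water. Without acad8 and etf1b the median over the remaining 27 genes was again -0.17. The hydratase-domain gene echdc2 differed by 0.03, from 5.40 in atropine and 5.37 in water, and echdc3 was below the filter, at 3.21 in atropine and 3.46 in water.

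**Figure D3:**
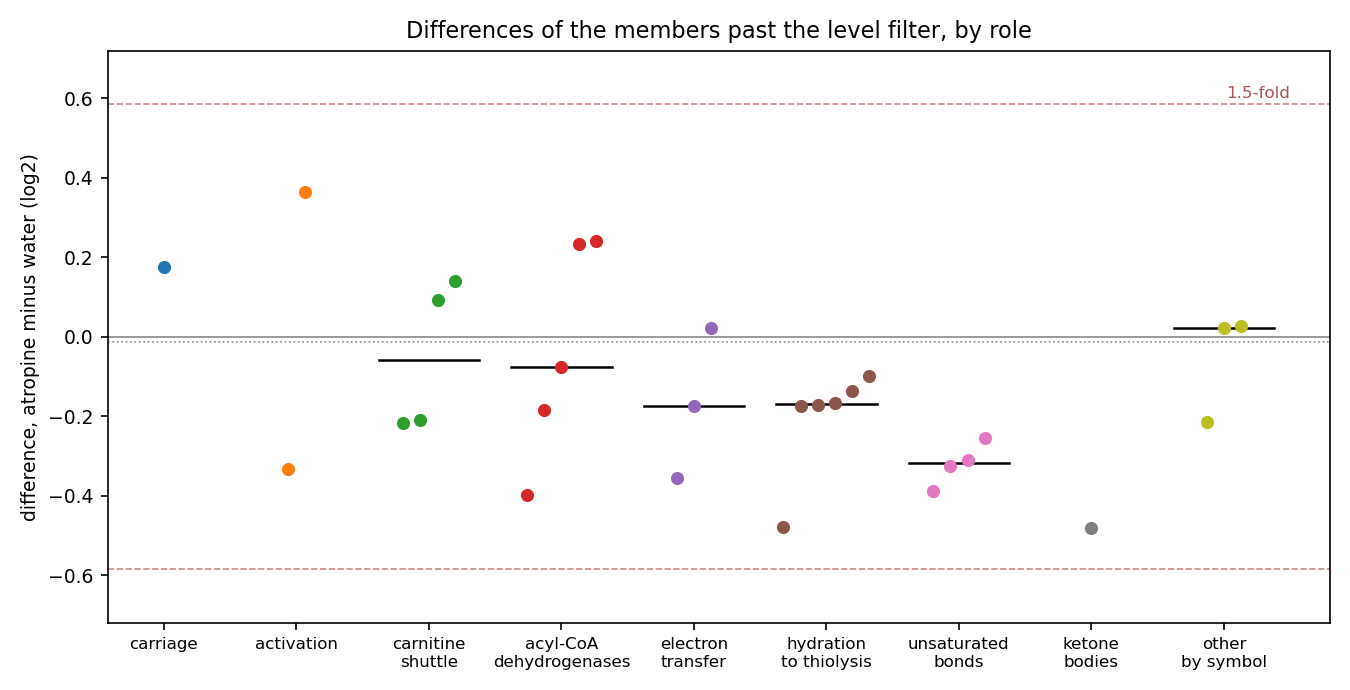
Difference, atropine minus water (log2, as deposited), of each member past the filter, by role; the short bar is the median of roles with at least 3 genes, the dotted line the median of all genes compared (-0.01) and the dashed lines 1.5-fold. No point reaches a dashed line, and the 4 genes for unsaturated bonds lie between -0.39 and -0.25. These 4 lie above 0 with the spike-in scaling, where 201 of all 5294 genes are below 0 and the median of all genes is 0.47.

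Further probe sets of the same gene allow a check of measurement, though not of the treatment, since they read the same RNA pools. Of the 6 members with several probe sets, acsl1a had 5, all of them below 0, with differences from -0.41 to -0.08. The acsl1a value given above came from a probe set that can take up several transcripts of the gene, and the brightest of its probe sets without such a mark differed by -0.09. The size of the acsl1a difference thus depended on the probe set. All 3 probe sets of decr1 were close together, between -0.32 and -0.31. Those of cpt2 had opposite signs, at -0.22 for the brighter and 0.09 for the dimmer. The second probe set of ech1 was below the filter and differed by -0.06. The 4 probe sets of etf1b ran from -0.05 to 0.06, and both of fabp1a were below the filter.

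**Figure D4:**
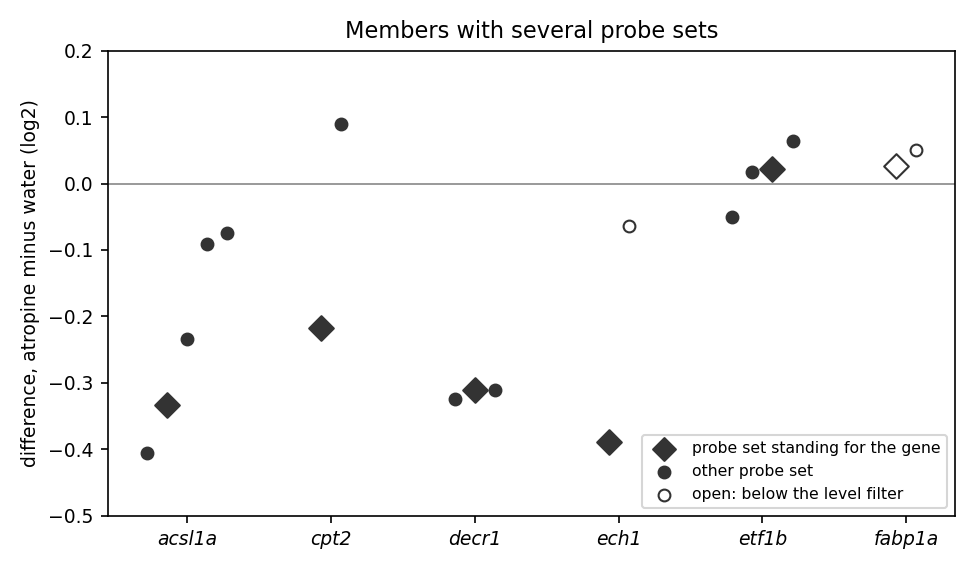
Differences, atropine minus water (log2, as deposited), of every probe set of the 6 members with several; diamonds mark the probe set that stands for the gene and open symbols lie below the level filter. The 3 of decr1 lie between -0.32 and -0.31, the 5 of acsl1a spread from -0.41 to -0.08, and those of cpt2 lie on both sides of 0.

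Genes that work beside the members were described from lists. Of 57 names, mainly for carnitine transport, fatty acid import, peroxisomal oxidation and lipase handling, 29 had a named probe set and 23 passed the filter. Genes outside these groups were among the 23, such as pcca, pccb, mmut, dlst, got2a, got2b, hsd17b12a and hsd17b12b. The counts and median below describe the mixed list and not transport and import alone. Of the 23, 1 gene was lower by 1.5-fold or more and none higher, where 2.12% and 1.87% of all genes compared were. Below 0 were 16 of 23, where 52.0% of all genes were, and their median was -0.15. The median was thus near that of the members, and like theirs it turned positive when scaled to the cardiomyocyte markers (0.05) or to the spike-ins (0.33). The gene lmf2b, related to a lipase maturation factor, stood at 5.58 in atropine-exposed hearts and 6.22 in water-exposed hearts, a difference of -0.64. Its dimmer second probe set went the other way, by 0.36. Named outside the rule, slc25a20, encoding the carnitine-acylcarnitine carrier between the carnitine palmitoyltransferases, differed by 0.01, from 7.60 in both groups. The fatty acid import gene slc27a1a differed by -0.30, from 6.08 in atropine and 6.38 in water, and is also named outside the rule.

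The next list covered nuclear receptors of the PPAR and retinoid X families, PGC-1 coactivators and AMP-activated protein kinase subunits. It had 20 of 41 names measured and 12 past the filter. Below 0 were 7 of 12, where 52.0% of all genes compared were, and the median was -0.07 as deposited. That median was 0.13 when scaled to the cardiomyocyte markers and 0.41 when scaled to the spike-ins, so it has no settled direction. Of the 12, 1 was at least 1.5-fold apart, where 2.12% of all genes compared were lower and 1.87% higher by that much. This was prkag2a, for a regulatory gamma subunit of AMP-activated protein kinase, the kinase that in mammals frees fatty acid entry from its inhibitor. It stood at 7.68 in atropine-exposed hearts and 8.52 in water-exposed hearts, a difference of -0.84 or 1.79-fold. Named outside the rule, the coactivator gene ppargc1b differed by 0.14, from 7.01 in atropine and 6.87 in water, while its dimmer second probe set differed by -0.10, from 5.97 in atropine and 6.07 in water. No PPAR gene of the list was among its 20 measured names, so its median describes none of these receptors.

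The list of PPAR-induced and fuel-switch genes had a median on the other side of 0, at 0.18. Below 0 were 3 of 11, where 52.0% of all genes compared were. None was at least 1.5-fold apart, where 2.12% of all genes were lower and 1.87% higher by that much. The list was composed without any of the members, and it also held the genes hmgcs1, acat2, pdha1a and pdhb. Its median thus describes this list and not all genes that PPAR factors induce. This list had 16 of 30 names measured. Its highest gene was txnipa, whose product restrains glucose uptake in mammals, at 10.61 in atropine-exposed hearts and 10.10 in water-exposed hearts, a difference of 0.52. The mitochondrial uncoupling protein gene ucp3 stood at 8.65 in atropine and 8.26 in water, a difference of 0.39. The lowest were the thiolase gene acat2 at -0.33 and the gene bdh2, of the hydroxybutyrate dehydrogenase family, at -0.17. Of the genes for kinases that shut pyruvate dehydrogenase, named outside the rule, pdk4 stood at 7.60 in atropine and 7.31 in water, and pdk2b at 6.72 in atropine and 6.45 in water, each a difference of 0.28. The enzymes of the cycle and these fuel-switch genes thus had medians of opposite sign as deposited, each under 1.5-fold, and scaling to the cardiomyocyte markers or to the spike-ins put both above 0; the difference between the lists was not tested.

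Markers of several cell types differed between the arrays beside the members, and their part in the members' differences was not tested. For the counts below, 2.12% of all genes compared were at least 1.5-fold lower, 1.87% at least 1.5-fold higher and 52.0% below 0. Cardiomyocyte markers had a median of -0.20 over 14 genes, with 10 below 0 and 2 at least 1.5-fold lower, tnnc1a at -1.41 and myh7 at -1.19, and a mean level of 10.52 in atropine-exposed hearts and 10.83 in water-exposed hearts. Centred on these markers, 12 of the 29 members were below 0, where 20.3% of all genes were. In pooled whole hearts, fewer cells of a type and less RNA per cell cannot be told apart. Red blood cell markers had a median of 0.57 over 12 genes, with 6 at least 1.5-fold higher and 3 below 0, and a mean level of 8.47 in atropine and 7.97 in water. Macrophage and neutrophil markers had a median of -0.69 over 14 genes, with 8 at least 1.5-fold lower, and a mean level of 7.12 in atropine and 7.81 in water. Fibroblast and epicardial markers had a median of -0.63 over 10 genes, with 5 at least 1.5-fold lower and 8 below 0. Their mean level was 6.64 in atropine and 7.30 in water. The 5 were col1a1a, col1a2, fn1a and the keratin genes krt4 and krt5, while postnb and cldn11a each differed by 0.10. The list's genes tbx18 and wt1a were below the filter. As deposited, the medians of these 3 lists were each larger in size than that of the fatty acid genes. When scaled to the spike-ins, the macrophage and neutrophil list had a median of -0.21 and the fibroblast and epicardial list one of -0.15. That of the red blood cell list was then 1.05, that of the members 0.31 and that of all genes compared 0.47. That scaling moves every gene by the same amount, so sizes around 0 are not compared there and the order of these medians is unchanged. Endothelial markers had a median of 0.00 over 4 genes. Only 2 adipocyte names passed the filter, cfd at -1.18 and cebpa at -0.30, and both are also expressed by other cells. The list of liver and gut markers also held genes for digestive enzymes of the pancreas. Of its 17 measured genes 3 passed the filter, tfa at 0.24 and the pancreatic genes ela2 at 0.48 and cpa5 at -0.45.

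**Figure D5:**
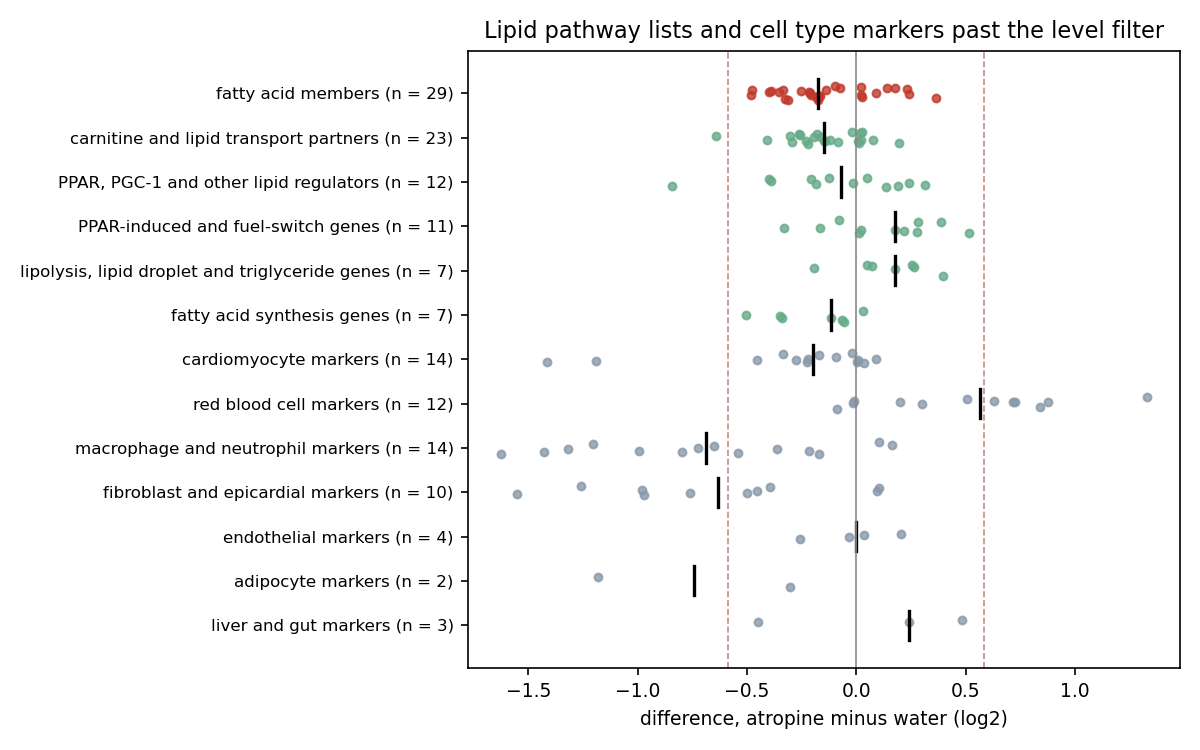
Differences, atropine minus water (log2, as deposited), of the 29 members (red), of 5 lists of related lipid genes (green) and of 7 lists of cell type markers (grey-blue); each point is a gene past the filter, the bar the list's median and the dashed lines 1.5-fold. The fatty acid members have a median of -0.17 and fuel-switch genes one of 0.18, both above 0 when scaled to the cardiomyocyte markers or the spike-ins, while red blood cell markers centre on 0.57 and macrophage and neutrophil markers on -0.69.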

How the data were processed

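Total RNA was labelled with biotin by the Affymetrix 3' IVT Express protocol and measured on 2 arrays, 1 per group, per the labels' protocols. The deposited values, 1 per probe set and array, are taken to be log2 expression values normalized between arrays by the authors, from their range and because the sorted values of both arrays differed by at most 0.15. The summary method and its software were not given in the sources used here, and detection calls were not used.

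Of 15502 non-control probe sets, 10795 had 1 symbol in the platform annotation, 135 several and 4572 none, and none of the 135 held a member's symbol. All 41 members were found in a RefSeq gene table of zebrafish. Differences are the atropine value minus the water value, without re-centring, and fold sizes are 2 to the power of its size. The level filter kept genes that reached 4.05 on at least 1 array. Called genes were those at least 1.5-fold apart. No test across samples is possible with 1 array per group, so precision is limited by the number of arrays. Named from each related list were members at least 1.5-fold apart, or else the 2 highest and 2 lowest. The members and lists were chosen with earlier results of these data known. The counting step was tested on simulated data. Alternatives were median centring, quantile normalization, loess (span 0.4), centring on cardiomyocyte markers, no filter or one at the upper quartile, a linear offset of 16, probe set choice, the member set and a 2-fold threshold. Scaling to the spike-ins and a 1.2-fold threshold were added after seeing the data. No sequences are printed. Software was pandas 2.3.3, numpy 2.4.6 and statsmodels 0.14.6 under Python 3.11.15.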

Additional observations from a re-analysis of the deposited data

How the results depend on the processing

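Under 9 of the alternatives the members' median stayed between -0.18 and -0.15. Centring on the cardiomyocyte markers put it at 0.0233 and that of all genes at 0.18, with 12 members below 0 (20.3% of all genes). Centring on the spike-ins put it at 0.31 and that of all genes at 0.47. There, 1 member was below 0 (201 of all 5294 genes) and 5 were at least 1.5-fold higher (28.6% of all genes). Both shifts of the medians follow from the construction of these scalings. At 1.2-fold, 8 members were lower (13.9% of all genes) and 1 higher (10.5% of all genes). The number at least 1.5-fold lower was 0 in each setting with that threshold. Of 174 recomputed differences of single members under 6 alternatives, none changed sign and 1 moved by over 0.2 (log2), that of acsl1a. The centrings on cardiomyocyte markers and spike-ins, which did turn signs, were not among the 6. The 2 probe set choices among them could not change a member with a single probe set. These recomputed signs are therefore no check of the direction of a single gene. Without detection calls, nothing can be read from the 12 dim members. No paired analysis was possible because each group has 1 array.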

Other observations

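The list of lipolysis, lipid droplet and triglyceride genes and that of fatty acid synthesis genes had medians on opposite sides of 0 as deposited. Of the list of lipolysis, lipid droplet and triglyceride genes 7 passed the filter. None was 1.5-fold apart, where 2.12% of all genes compared were lower and 1.87% higher by that much. Below 0 was 1 of the 7, where 52.0% of all genes compared were. The lipolysis genes lipea and mgll were below the filter, so the list's median of 0.18 is not read as one of lipid release. That median is the value of plin3, a lipid droplet coat protein gene that also stands in the fuel-switch list and is the median gene there. The phosphatidate phosphatase gene lpin2, whose mammalian relative acts in triglyceride synthesis, was highest, at 7.16 in atropine-exposed hearts and 6.76 in water-exposed hearts, a difference of 0.40. The glycerol phosphate acyltransferase gene gpat4 differed by 0.26, while lipia, for a lipase, differed by -0.20 and mogat3b, for a monoacylglycerol acyltransferase, by 0.05.

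Of the fatty acid synthesis list 7 genes passed the filter, with a median of -0.11. Below 0 were 6 of the 7, where 52.0% of all genes compared were. Centring on the cardiomyocyte markers or the spike-ins would put the list's median above 0. The acetyl-CoA carboxylase gene acaca, whose product makes malonyl-CoA, the building block of synthesis and the inhibitor of carnitine palmitoyltransferase, was lowest, at 5.54 in atropine and 6.05 in water, a difference of -0.51 or 1.42-fold. The elongation cycle gene tecrb differed by -0.35, me1, for malic enzyme, by -0.06 and hacd3, for a dehydratase, by 0.03.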
